A study of Arabidopsis thaliana and Boechera depauperata with 12 samples.

Results

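The transcript levels of *B. depauperata*, a thermotolerant and polyploid mustard, were compared between 2 libraries of plants given basal heat stress (B/HS) and 2 libraries of control plants. These 4 libraries were chosen by their labels from the 12 of the series, which also holds acquired heat stress (A/HS) libraries of *B. depauperata* and the same 3 conditions in *A. thaliana*. Control plants were kept at 22 °C (EW9 and EW10), and B/HS plants were moved from 22 °C straight to 38 °C for 3 h (EW11 and EW12). A/HS plants (EW13 and EW14) received 38 °C for 1 h, 22 °C for 1 h and 43 °C for 3 h. No mutant, transgene or chemical was named for any group. According to the methods, both replicates of a condition were prepared separately from seed germination onwards. Reads were counted on the genes of the diploid relative *B. stricta*, so the reads of duplicated gene copies (homeologs) in the polyploid could not be told apart. The counts covered 27416 genes, and 17839 of them had enough reads to be tested.

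A heat shock response is the rapid change in gene expression that follows a rise in temperature. Misfolded proteins release heat shock transcription factors (HSFs), which bind heat shock elements near gene starts and switch on chaperones, the proteins that refold or hold damaged proteins. Chaperones of the cytosol, the mitochondria, the chloroplasts and the endoplasmic reticulum (ER) take part. Splicing factors of the serine/arginine-rich (SR) family, antioxidant enzymes and hormone signalling genes are also known to respond to heat in plants. Only 1628 of the tested genes could be given the name of an *A. thaliana* gene, by a one-to-one identifier pair in the study's supplementary splicing table. These names therefore cover genes in which the study listed splicing events, and all other genes are given by their *B. stricta* identifier.

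The control libraries held 6388449 and 7666352 counts and the B/HS libraries 5446796 and 5663048. Levels are given in CPM, the counts divided by a library size scaled with TMM factors, and 3 counts, the limit that a count of 0 allows, stood for 0.298 to 0.593 CPM in these libraries. These limits cover counting error only. The median absolute difference of log2(CPM + 1) was 0.27 between both control libraries, 0.32 between both B/HS libraries and 0.43 to 0.54 between a control and a B/HS library. The labels give the tissue as root, yet 6 marker genes of green tissue were all detected and summed to 11700 and 8680 CPM in the control libraries and to 7500 and 9110 CPM in the B/HS libraries. RCA (rubisco activase, which keeps the carbon-fixing enzyme active) alone reached 6250, 4330, 4360 and 6110 CPM in EW9 to EW12. The sums overlapped between control and B/HS. GS2, SBPASE, GAPB and GLDP1, 4 of the 6 markers, were lower in both B/HS libraries than in both controls. Such separation, in either direction, was seen in 61.0% of all tested genes. None of the 6 markers passed in edgeR, their part in the results was not tested, and root markers were not sought. A change of a transcript in such bulk samples cannot be told apart from a change in the share of the cells that hold it.

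After B/HS, transcripts of a broad set of genes rose and a smaller set fell. Differential expression (DE) was called by edgeR's quasi-likelihood test where the *P*-value, adjusted after Benjamini and Hochberg, was under 0.05 and the change at least 4-fold. By this rule 620 genes were DE, which is 3.48% of those tested. Of these, 405 genes rose (2.27%) and 215 fell (1.21%). Without the fold threshold, 1300 genes passed (7.29%), 864 of them higher (4.84%) and 436 lower (2.44%). The control and B/HS libraries of all 620 DE genes did not overlap in CPM, against 61.0% of all tested genes. The median log2 fold change over all tested genes was 0.0.

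Over the 4 libraries together, the median level was 53.4 CPM for the genes that rose and 8.52 CPM for the genes that fell. This level includes the B/HS libraries, so the change itself raises it for the genes that rose and lowers it for those that fell. It therefore does not rank these sets by their abundance before heat. Together, the 405 genes took 1.68% and 2.89% of all counts in the control libraries and 20.2% and 13.5% in the B/HS libraries. The 215 genes that fell took 1.54% and 1.52% of control counts and 0.164% and 0.241% of B/HS counts. Among the genes that rose, 258 changed by 4- to 8-fold, 115 by 8- to 16-fold and 32 by more. Among those that fell, these classes held 131, 44 and 40 genes, and 35 of the 215 had 3 or fewer counts in both B/HS libraries, so that their fitted fold changes depend on the prior count.

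**Figure D1:**
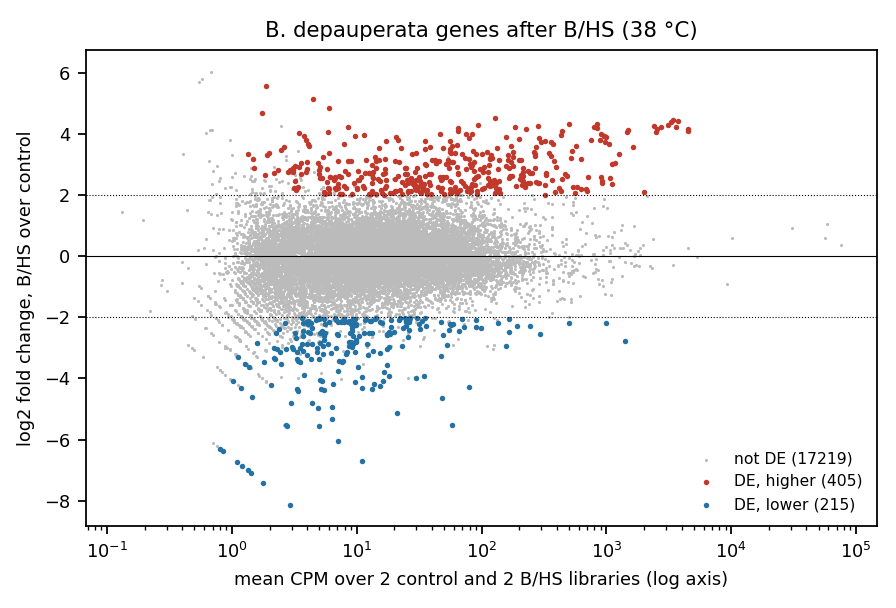
Log2 fold change of B/HS over control for each of the 17839 tested genes against its mean CPM over the 4 libraries (log axis). Red points are the 405 DE genes that rose and blue points the 215 that fell, grey points are not DE, and dotted lines mark a 4-fold change. Among the DE genes, the red points reach higher mean CPM than the blue points, most of which lie at low CPM. This mean includes the B/HS libraries.

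These calls rested on both libraries of each condition. When EW11 was left out, edgeR called 0 genes DE, although 2413 genes had an unadjusted *P*-value under 0.05 and DESeq2 still called 359 without that library. Without EW9 edgeR called 6 genes and DESeq2 453, without EW10 edgeR called 322 and DESeq2 570, and without EW12 they called 570 and 707. All of the DE genes that could be tested kept their direction in each of these fits. EW11 held the higher level of the 2 B/HS libraries for 354 of the 405 genes that rose, against 49.0% of all tested genes. EW10 was the higher control for 344 of them, against 51.2% of all tested genes.

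The most abundant genes that rose had no named pair. Bostr.7305s0058 stood at 268 and 681 CPM in the control libraries and at 10600 and 6320 CPM in the B/HS libraries (log2 fold change 4.16 ± 0.59 SE, adjusted *P* = 0.00945 by edgeR). Bostr.2392s0026 went from 263 and 726 CPM to 11600 and 5470 CPM (4.11 ± 0.67, adjusted *P* = 0.0128 by edgeR). In both genes even the lower B/HS library lay far above both controls. They belonged to 8 DE genes with a mean above 5000 CPM after B/HS, all without a named pair, whose log2 fold changes lay between 4.11 and 4.44. Their summed share of the counts was 0.191% and 0.543% in the control libraries and 6.03% and 4.37% in the B/HS libraries. The most abundant genes that fell were unnamed as well. Bostr.7128s0081 stood at 3180 and 1710 CPM in control and at 285 and 424 CPM after B/HS (−2.79 ± 0.60, adjusted *P* = 0.0304 by edgeR). Bostr.7128s0655 stood at 1230 and 2030 CPM in control and at 263 and 447 CPM after B/HS (−2.20 ± 0.41, adjusted *P* = 0.0186 by edgeR).

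Among the 1628 named genes, 54 were DE (3.32%), and 46 of them rose (2.83%) while 8 fell (0.491%). Chaperones were among those that rose. In a list of 22 chaperone and heat stress factor genes, 10 rose, none fell and 12 did not pass the test, with a median log2 fold change of 1.30. Over all tested genes 4.84% rose. The list was drawn up with earlier results of these data known, so its count describes the response and is no independent evidence of its direction. In edgeR 0 members passed without EW9 or EW11, 1 without EW10 and 8 without EW12, whereas in DESeq2 9 or 10 passed in each of these fits, and the median lay between 1.11 and 1.42 in all of them.

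The strongest response of a named gene was that of ERDJ3A (Bostr.22252s0175, AT3G08970), a DnaJ co-chaperone of the ER that *A. thaliana* pollen tubes need to grow in heat. It stood at 30.9 and 52.9 CPM in control and at 689 and 318 CPM after B/HS (log2 fold change 3.59 ± 0.48 SE, or 12-fold, adjusted *P* = 0.00934 by edgeR). Fes1A (Bostr.22252s0132, AT3G09350), a partner of cytosolic HSP70 chaperones, stood at 59.1 and 120 CPM in control and at 1490 and 441 CPM after B/HS (3.43 ± 0.63, adjusted *P* = 0.0177). The B/HS libraries of Fes1A differed from each other by almost as much as the lower of them differed from the higher control, and its log2 fold change ranged from 2.31 to 4.07 when 1 library was left out. The DnaJ gene AT3G14200 stood at 12.5 and 12.6 CPM in control and at 158 and 52.2 CPM after B/HS (3.07 ± 0.50, adjusted *P* = 0.0128 by edgeR).

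Other chaperones of the list rose too. HSP60 (Bostr.19424s0205, AT3G23990), a chaperonin that folds proteins in mitochondria, stood at 108 and 143 CPM in control and at 1100 and 523 CPM after B/HS (2.69 ± 0.43, adjusted *P* = 0.0126). ROF1 (Bostr.19424s0107, AT3G25230), a peptidyl-prolyl isomerase that works with HSP90 and prolongs thermotolerance in *A. thaliana*, stood at 260 and 363 CPM in control and at 2330 and 1350 CPM after B/HS (2.56 ± 0.40, adjusted *P* = 0.0115). The DnaJ gene AT1G72416 was an exception to the order of the B/HS libraries, with 59.9 CPM in EW11 and 75.4 CPM in EW12, against 20.2 and 15.9 CPM in control (1.91 ± 0.29, adjusted *P* = 0.0114 by edgeR). None of these genes had a control library within the range of its B/HS libraries.

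The remaining members that rose are named here after their values were seen. They were SHD (the HSP90 of the ER), CRT1b (a calreticulin, which binds calcium and folds glycoproteins in the ER), SGT1A (an HSP90 co-chaperone of immune receptors) and PDIL1-5 (a protein disulfide isomerase-like protein), with log2 fold changes of 2.36, 1.91, 2.38 and 1.4. The transcription factor genes of the list were low. HSFA1A, a master regulator of the heat shock response in *A. thaliana*, stood at 6.56 and 8.43 CPM in control and at 12.8 and 13 CPM after B/HS, and HSFA4A at 7.71 and 12.3 CPM and at 17 and 15.4 CPM. Neither passed the test (adjusted *P* = 0.242 and 0.249 by edgeR). The chloroplast members CPN60B1, CYP38 and FKBP13 had log2 fold changes of −0.82, −0.56 and −0.35 and did not pass either (adjusted *P* = 0.33, 0.341 and 0.536 by edgeR).

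**Figure D2:**
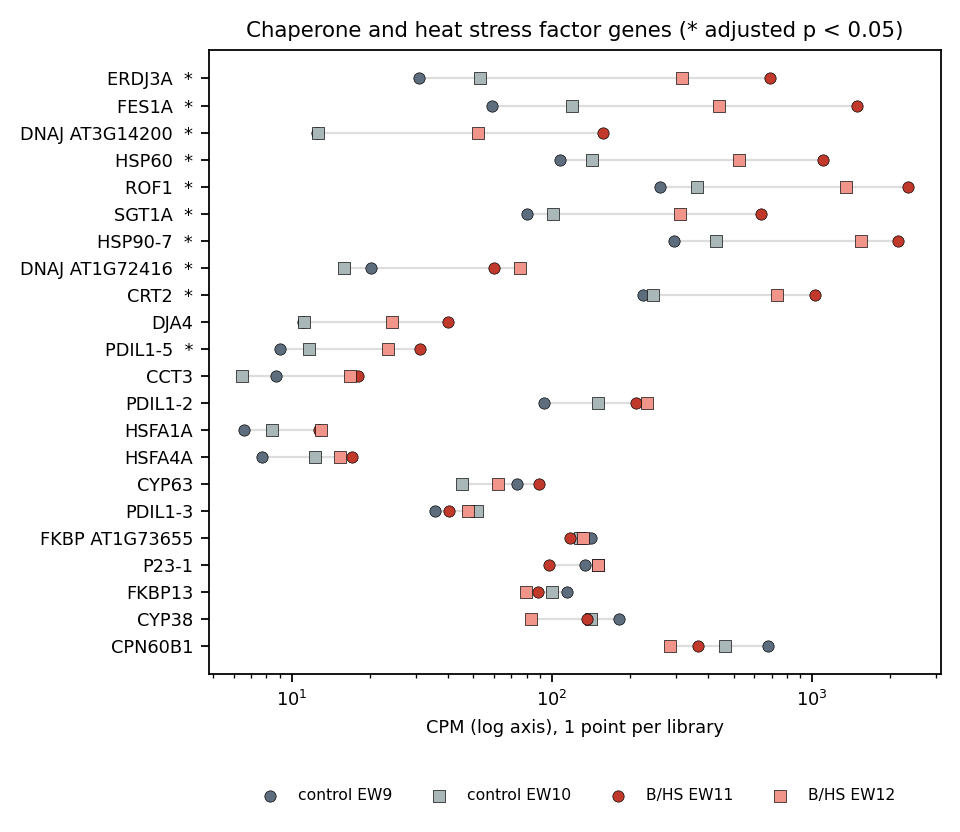
CPM (log axis) of the 22 chaperone and heat stress factor genes in both control libraries (grey) and both B/HS libraries (red), 1 point per library, ordered by log2 fold change. Stars mark the 10 genes with an adjusted *P*-value under 0.05. ERDJ3A, at the top, rose from 30.9 and 52.9 CPM to 689 and 318 CPM, and EW11 lies right of EW12 in most of the starred genes.

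SR45a and SR30, which regulate splicing, rose after B/HS. SR45a (Bostr.25219s0220, AT1G07350), an SR-like RNA-binding protein, stood at 25.6 and 36.1 CPM in control and at 380 and 275 CPM after B/HS (3.41 ± 0.34, adjusted *P* = 0.00934 by edgeR). SR30 (Bostr.25219s0035, AT1G09140), an SR protein that helps to select splice sites, stood at 55.3 and 72.2 CPM in control and at 618 and 327 CPM after B/HS (2.89 ± 0.40, adjusted *P* = 0.00945). Both B/HS libraries lay several-fold above both controls in either gene. SR45a was not on the list of splicing factors, and SR30 was the only one of its 18 tested members that passed in edgeR, though not without EW9 or EW11. For comparison, 4.84% of all tested genes rose. The other 17 members of the list had log2 fold changes between −0.32 and 0.65, and the median of the list was 0.27. SR45, a related RNA-binding protein that acts in splice site choice, had a log2 fold change of −0.32 and did not pass (adjusted *P* = 0.631 by edgeR).

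A heat shock element, the sequence bound by HSFs, was searched in the *A. thaliana* partners, because the reference at hand was that of *A. thaliana* (RefSeq, TAIR10.1). The letters searched were GAANNTTCNNGAA and TTCNNGAANNTTC, which are the reverse complement of each other, in a window from 250 bases before to 50 bases after each annotated gene start. They occurred in 3 of the 46 pairs that rose (6.52%), in none of the 8 that fell, in 12 of all 1628 tested pairs (0.737%) and in 132 of 27443 protein-coding genes (0.481%). These shares are descriptions of *A. thaliana* sequence, and no *B. depauperata* promoter was read. The 3 matches are shown with 8 bases on either side, 5′ to 3′ on the strand of the gene, and capitals mark the element. They lie at chr1:2260131-2260159 (minus strand) for SR45a, at chr1:8282480-8282508 (minus strand) for AT1G23330 and at chr4:5828522-5828550 (plus strand) for AT4G09150.
SR45a: gtccgactTTCCCGAAGCTTCtttctaaa
AT1G23330: cttaattaGAAATTTCACGAAacatgaag
AT4G09150: tgctttcaGAAATTTCCAGAAattacggg
The element of SR45a begins 37 bases and that of AT4G09150 26 bases into the annotated gene, while that of AT1G23330 begins 79 bases before it. AT1G23330, annotated as an alpha/beta-hydrolase, went from 47.7 and 73.5 CPM in control to 912 and 345 CPM after B/HS (3.37 ± 0.50, adjusted *P* = 0.00986 by edgeR). AT4G09150, annotated as a T-complex protein and named here for its element, had a log2 fold change of 2.95.

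The other genes among the 12 named genes with the largest rise had diverse annotations. AT5G58110, annotated as a chaperone binding protein that activates ATPases, stood at 45.3 and 88.0 CPM in control and at 790 and 503 CPM after B/HS (3.28 ± 0.42, adjusted *P* = 0.00934 by edgeR). AT1G66510 belongs to the AAR2 family, which in yeast helps to assemble the spliceosome, and it stood at 10.5 and 18 CPM in control and at 175 and 91.7 CPM after B/HS (3.22 ± 0.42). SDG37, a SET domain protein, stood at 34.6 and 49.9 CPM in control and at 538 and 204 CPM after B/HS (3.13 ± 0.49). AT5G59845, a gibberellin-regulated family gene, rose from the lowest level, with 0.514 and 1.49 CPM in control and 8.69 and 13.4 CPM after B/HS (3.39 ± 0.66). The remaining 5 genes encode a lipid-sensing domain protein (AT4G19645), a PIN domain protein (AT2G46230), a protein annotated as an arabinogalactan protein (AT5G11680), a MATE efflux protein (AT1G51340) and the hydrolase given above. Log2 fold changes of all 12 lay between 3.13 and 3.59.

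Several genes of hormone and calcium signalling rose. In the list of 11 calcium sensors, kinases and abscisic acid (ABA) signalling genes, 3 rose, none fell and 8 did not pass, with a median log2 fold change of 0.38. Over all tested genes 4.84% rose, and in edgeR none of the 3 passed without EW9 or EW11, while DESeq2 called 3 with any 1 library left out. RCAR1 (Bostr.13158s0170, AT1G01360), an ABA receptor, stood at 18.3 and 31.4 CPM in control and at 245 and 110 CPM after B/HS (2.84 ± 0.45, adjusted *P* = 0.0123 by edgeR). Its neighbours on the *B. stricta* scaffold do not pair with neighbours of AT1G01360, so the identity of this pair is uncertain. SNRK2.3, a kinase that these receptors release from inhibition, stood at 47.8 and 71.2 CPM in control and at 239 and 188 CPM after B/HS (1.84 ± 0.31, adjusted *P* = 0.014). CBL1, a calcium sensor of the plasma membrane, stood at 9.13 and 16.3 CPM and at 86.9 and 42.5 CPM (2.34 ± 0.42, adjusted *P* = 0.0169).

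Genes of the circadian clock rose as well. Of 10 clock genes, 3 rose, none fell and 7 did not pass, with a median log2 fold change of 0.48, against the 4.84% of all tested genes that rose. In edgeR 0 of them passed without EW9 or EW11 and 1 without EW10, while DESeq2 called 2 or 3 with 1 library left out. LNK1 (Bostr.0568s0387, AT5G64170), a coactivator of the REVEILLE (RVE) transcription factors, stood at 39.6 and 54.8 CPM in control and at 384 and 196 CPM after B/HS (2.62 ± 0.39, adjusted *P* = 0.00986 by edgeR). EPR1, also called RVE7, stood at 19.4 and 16.7 CPM in control and at 134 and 58.9 CPM after B/HS (2.41 ± 0.41, adjusted *P* = 0.0147). RVE5 (AT4G01280) stood at 10.4 CPM in both controls and at 40.5 and 26.9 CPM after B/HS (1.69 ± 0.30, adjusted *P* = 0.0158). LNK2, PRR7 and RVE8, other clock genes of the list, had log2 fold changes of 0.37, 0.37 and 0.65 and did not pass.

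PIF4 (Bostr.25993s0478, AT2G43010), a transcription factor that promotes growth at warm temperature in *A. thaliana*, was the only one of 10 light signalling genes that passed in edgeR, and it passed in neither tool with any 1 library left out. It stood at 15.7 and 20.6 CPM in control and at 42.1 and 52.6 CPM after B/HS (1.38 ± 0.27, adjusted *P* = 0.0235 by edgeR). In the A/HS libraries it stood at 8.16 and 8.72 CPM, below the controls (−1.11, adjusted *P* = 0.0377). The direct difference between A/HS and B/HS was −2.49 and did not pass (adjusted *P* = 0.193). APX1 (Bostr.25219s0159, AT1G07890), the cytosolic ascorbate peroxidase that removes hydrogen peroxide, stood at 853 and 886 CPM in control and at 3850 and 2880 CPM after B/HS (1.95 ± 0.35, adjusted *P* = 0.0174). It was the only one of 5 redox and respiration genes that passed in edgeR, and it passed there without EW12 but not without any other library. Both counts, 1 of 10 and 1 of 5, stand beside the 4.84% of all tested genes that rose. GSH2, a glutathione synthetase named here after its values were seen, had a log2 fold change of −0.94 (adjusted *P* = 0.0607 by edgeR, 0.0307 by DESeq2).

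The 8 named genes that fell at least 4-fold are annotated as enzymes or enzyme-like proteins. IMS2 (Bostr.10199s0143, AT5G23020), an enzyme that lengthens methionine-derived chains in glucosinolate synthesis in *A. thaliana*, stood at 183 and 371 CPM in control and at 20.7 and 51.7 CPM after B/HS (−2.93 ± 0.50, adjusted *P* = 0.015 by edgeR). PHS2, a cytosolic glucan phosphorylase that handles the products of starch breakdown, stood at 41.5 and 43.6 CPM in control and at 6.13 and 13 CPM after B/HS (−2.14 ± 0.37, adjusted *P* = 0.0157). The beta-glucosidase gene BGLU44 stood at 75.2 and 109 CPM in control and at 16.0 and 23.3 CPM after B/HS (−2.23 ± 0.39, adjusted *P* = 0.0154). In each of these genes the lower control library lay more than 3-fold above the higher B/HS library.

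BGAL4, a beta-galactosidase gene, was the least certain of the 8. Its control libraries differed from each other by more than the lower of them differed from B/HS, with 342 and 98.5 CPM in control and 59.3 and 37.8 CPM after B/HS (−2.18 ± 0.55, adjusted *P* = 0.0495 by edgeR). Without EW9 its log2 fold change was the smallest of all fits with 1 library left out, at −1.04. The serine carboxypeptidase-like gene scpl35 stood at 67.0 and 51.7 CPM in control and at 9.49 and 14.8 CPM after B/HS (−2.28 ± 0.33, adjusted *P* = 0.00945). E13L3, annotated as a glucan endo-1,3-beta-glucosidase-like protein, AT2G39920, annotated as an acid phosphatase, and AT5G26680, annotated as a 5′-3′ exonuclease, had log2 fold changes of −2.52, −2.49 and −2.11.

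**Figure D3:**
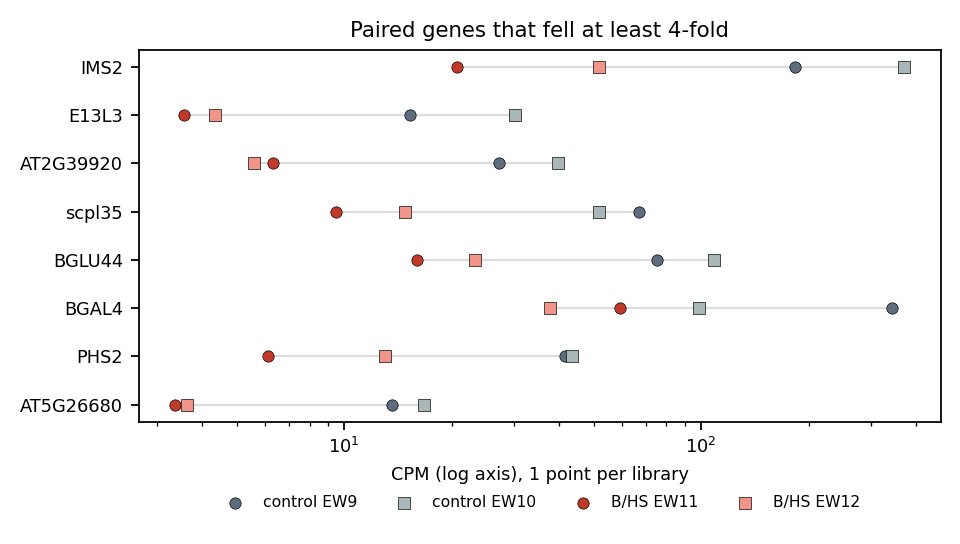
CPM (log axis) of the 8 named genes that fell at least 4-fold, 1 point per library, with control libraries in grey and B/HS libraries in red. All control points lie right of the B/HS points of the same gene, and BGAL4 shows the widest gap between its controls, at 342 and 98.5 CPM.

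LON2 (Bostr.28243s0024, AT5G47040), the Lon protease of peroxisomes, was the only one of 8 organelle proteases that passed in edgeR, where it passed without EW10 but not without any other library. It stood at 177 and 98.7 CPM in control and at 45.5 and 34.9 CPM after B/HS (−1.78 ± 0.35, adjusted *P* = 0.0235 by edgeR). For comparison, 2.44% of all tested genes were lower. All 8 protease genes had negative log2 fold changes, down to that of LON2 and with a median of −0.62, while the median over all tested genes was 0.0. PAP2 (AT4G29080, also called IAA27), a repressor of auxin responses, stood at 38.6 and 40.0 CPM in control and at 13.6 and 19.9 CPM after B/HS (−1.23 ± 0.28, adjusted *P* = 0.0392) and was the only one of 8 auxin and jasmonate genes that passed in edgeR. It passed in neither tool with any 1 library left out. Beside this count, too, stands the 2.44% of all tested genes that were lower. ARF6, an auxin response factor named here after its values were seen, had a log2 fold change of 1.10 (adjusted *P* = 0.0804 by edgeR, 0.0377 by DESeq2).

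In 5 of the 13 lists 0 genes passed in edgeR. At an unadjusted *P*-value under 0.05 edgeR had 4453 of all 17839 tested genes. In these lists it had 2 photosynthesis, 2 membrane lipid, 2 WRKY and immunity, 3 starch and central carbon and 0 proteasome and autophagy genes. DESeq2 called 1, 0, 2, 0 and 0 of them on the 6 libraries, and 2, 2, 2, 1 and 0 on the 4 libraries compared. Of 20 genes for photosynthesis, carbon fixation and pigments, 16 had a negative log2 fold change, and the median was −0.40. RCA, the most abundant of them, had a log2 fold change of −0.01 ± 0.38, and the glycine decarboxylase gene GLDP1, an enzyme of photorespiration, had the lowest value, with 1740 and 967 CPM in control and 417 and 741 CPM after B/HS (−1.23 ± 0.41, adjusted *P* = 0.109 by edgeR, 0.0182 by DESeq2). The medians were −0.50 for 5 membrane lipid genes, −0.79 for 5 WRKY and immunity genes, −0.09 for 8 starch and central carbon genes and 0.06 for 9 proteasome and autophagy genes. The immunity genes called by DESeq2 were WRKY40, a transcription factor of defence, with 40.1 and 5.16 CPM in control and 4.15 and 3.07 CPM after B/HS (−2.64, adjusted *P* = 0.0935 by edgeR, 0.0141 by DESeq2), and AT3G48080, with 13.1 and 31.4 CPM in control and 4.94 and 7.95 CPM after B/HS (−1.78, adjusted *P* = 0.0654 by edgeR, 0.0235 by DESeq2). The most abundant members of these 4 lists were FAD7, a chloroplast fatty acid desaturase (−0.39 ± 0.40), RIN2, a ubiquitin ligase (0.20 ± 0.27), GAPC1, a glycolytic dehydrogenase (0.98 ± 0.35), and RPT2a, an ATPase of the proteasome (−0.30 ± 0.25). Their adjusted *P*-values were 0.593, 0.695, 0.13 and 0.51.

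**Figure D4:**
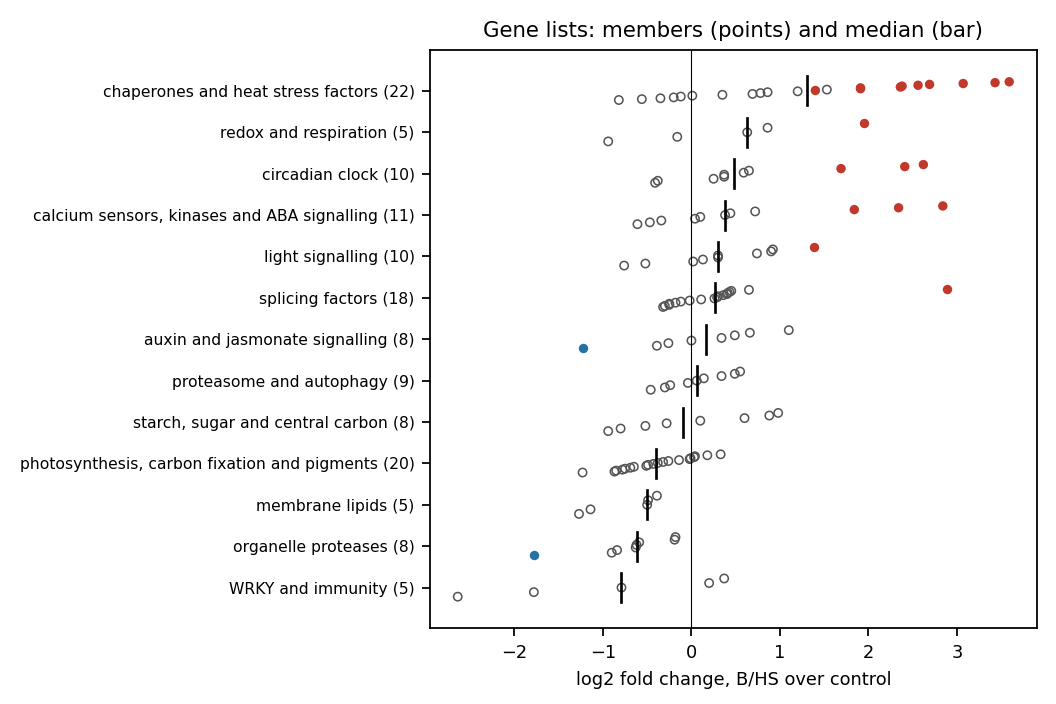
Log2 fold change of B/HS over control for the tested members of the 13 lists (number of members in brackets), 1 point per gene, with the median of each list as a black bar. Filled points passed at an adjusted *P*-value under 0.05 in edgeR (red higher, blue lower), and open points did not. Filled red points are most frequent among the chaperones, where 10 of 22 passed, and the photosynthesis list holds none.

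The A/HS libraries, which share these controls, are given beside the B/HS values for a few of the genes above, chosen after their values were seen. ERDJ3A stood at 516 and 729 CPM after A/HS, Fes1A at 1480 and 2000 CPM, SR45a at 577 and 664 CPM and IMS2 at 21.1 and 26.9 CPM. Their log2 fold changes of A/HS over control were 3.89, 4.29, 4.33 and −3.53, against 3.59, 3.43, 3.41 and −2.93 for B/HS. The direct differences between A/HS and B/HS were 0.31, 0.85, 0.92 and −0.60, and none of these passed (adjusted *P* = 0.769, 0.509, 0.246 and 0.59 by edgeR). These results do not show that the responses to both regimes were alike. AT5G26680, which fell after B/HS from 13.6 and 16.7 CPM to 3.36 and 3.62 CPM, stood at 14 and 11.6 CPM after A/HS, within or just below the range of its controls. Its direct difference of 1.88 did not pass (adjusted *P* = 0.193 by edgeR).

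The response of each named gene was then compared with that of its *A. thaliana* partner to the same 38 °C treatment. In a single fit over all 12 libraries, 78 of 1648 pairs (4.73%) differed between the species at an adjusted *P*-value under 0.05, and the response was higher in *B. depauperata* in 41 (2.49%) and lower in 37 (2.25%). Between 10 and 43 pairs passed when any one of the 8 control and B/HS libraries of both species was left out. The main chaperones were not among them. ERDJ3A had a log2 fold change of 3.59 in *B. depauperata* and 3.55 in *A. thaliana* (difference 0.02 ± 0.61), and that of HSP60 was 2.69 and 3.01 (difference −0.32 ± 0.53). Since these errors are large, similar responses are not shown. Of the 10 chaperone list members that rose in *B. depauperata*, only PDIL1-5 differed (1.4 against −0.86, difference 2.25 ± 0.43, adjusted *P* = 0.015 by edgeR).

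The pairs with the lowest relative response in *B. depauperata* rose in *A. thaliana* and did not pass in *B. depauperata*, with IMS2 as the exception. FKBP53, a nuclear immunophilin and histone chaperone, stood at 31.1 and 41.2 CPM in control and at 322 and 257 CPM after B/HS in *A. thaliana*, and at 25.6 and 32.4 CPM and then 13 and 21.2 CPM in *B. depauperata* (difference −3.76 ± 0.40, adjusted *P* = 0.000279 by edgeR). AT1G78070 (a WD40 repeat protein), AT3G03320 (an ASCH domain protein), WNK8 (a kinase) and FUS5 (a subunit of the COP9 signalosome) had log2 fold changes of 2.81, 1.97, 2.29 and 2.67 in *A. thaliana* and of −0.90, −0.65, −0.24 and 0.20 in *B. depauperata*. The WNK8 pair had no paired neighbour on its *B. stricta* scaffold, so its identity could not be checked by neighbours. IMS2 fell in *B. depauperata* by 2.93 on the log2 scale and had a log2 fold change of −0.35 in *A. thaliana* (difference −2.59 ± 0.62, adjusted *P* = 0.0347 by edgeR). Its *A. thaliana* partner stood at 6.9 and 7.12 CPM in control and at 6.92 and 4.18 CPM after B/HS. The *B. depauperata* controls were far higher, at 183 and 371 CPM.

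Among the pairs with the highest relative response in *B. depauperata*, URE (urease, which releases ammonia from urea) stood at 47.6 and 71.1 CPM in control and at 644 and 178 CPM after B/HS, and at 7.28 and 6.41 CPM and then 4.55 and 5.26 CPM in *A. thaliana* (difference 3.26 ± 0.69, adjusted *P* = 0.0246 by edgeR). AT1G11950, a jumonji domain protein, and AT3G57680, a peptidase of the S41 family, rose in *B. depauperata* (1.98 and 1.44) and had log2 fold changes of −0.78 and −1.34 in *A. thaliana*. AT1G34340, an alpha/beta-hydrolase, had a log2 fold change of 0.60 in *B. depauperata* and −2.25 in *A. thaliana*. The *A. thaliana* reads of these genes were few. AT3G57680 had 13 and 36 counts in control and 7 and 9 after B/HS. AT1G11950 had 27 and 58 and then 17 and 25, and AT1G34340 had 63 and 112 and then 17 and 14. The remaining 2 pairs of the 6 rest on still fewer *A. thaliana* reads. AT3G27900, whose identity is uncertain because its neighbours on the *B. stricta* scaffold do not pair with neighbours of that gene, had 1 and 7 counts in control and 0 and 0 after B/HS there, and AT3G54270 had 6 and 29 and then 2 and 2, so that no fold change is given for them.

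**Figure D5:**
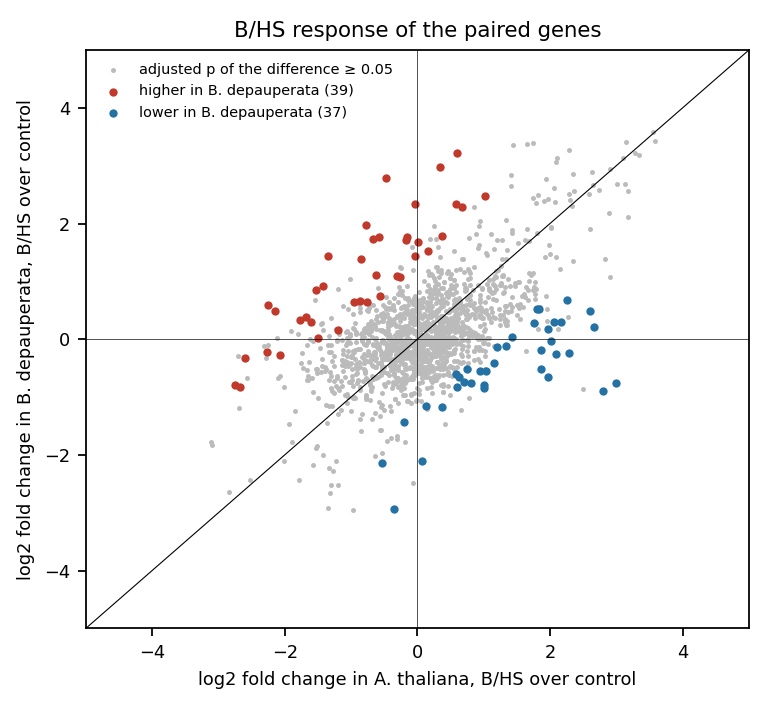
Log2 fold change of B/HS over control in *B. depauperata* against that in *A. thaliana* for the 1583 pairs fitted in both species, with the line of equal response. Red and blue points are the pairs whose difference passed at an adjusted *P*-value under 0.05, 39 higher and 37 lower in *B. depauperata*. ERDJ3A and Fes1A lie at the upper right near the line, and FKBP53 and AT1G78070 are the blue points furthest to the right of those below 0 in *B. depauperata*.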

How the data were processed

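Reads of 12 libraries were trimmed with fastx toolkit and aligned with TopHat (version 1.4.1 per the submitters' processing notes). The deposited values are raw counts per gene, and the counting program and its use of strand are not given in the sources used here. The labels name a Nextera XT preparation with amplification and the methods TruSeq. Counts of the 6 *B. depauperata* libraries were fitted in edgeR 4.0.16 (R 4.3.3) with filterByExpr, TMM factors and the quasi-likelihood test. The A/HS libraries entered the count filter, the scaling and the estimate of the spread, and a few A/HS contrasts are given. DESeq2 1.42.0, named in the methods, was an alternative. The SE was obtained by dividing the size of the log2 change by the square root of the F value. The species difference was an interaction term over one-to-one pairs, each library scaled by its own species' TMM size. An exact permutation test of 2 against 2 libraries cannot go below 0.333, so calls rest on the spread edgeR estimates across genes. Counts were also simulated with 100 genes changed 4-fold and 100 changed 8-fold among 17839, drawn from genes above a minimum level. Of these, edgeR recovered 75 and 98 by adjusted *P*-value and direction, without the fold threshold. The median fitted absolute log2 change was 1.98 and 2.99, so these counts do not measure recovery under the DE rule. Among the unchanged genes, 10 met the DE rule.

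Members and lists were chosen with earlier results of these data known. Named genes were the 12 higher and 12 lower DE pairs with the largest change (8 lower existed), up to 5 passing members per list or else its most abundant member, the 2 most abundant unpaired DE genes per direction, and the 6 pairs per direction with the largest species difference. Replicates were not copies of each other: their counts differed beyond sampling noise (chi-square per degree of freedom 20.9 in control, 19.7 in B/HS).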

Additional observations from a re-analysis of the deposited data

Results flagged for a closer look

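The difference in B/HS response between the species was itself tested (edgeR interaction term, n = 2 libraries per group). Adjusted over all 1648 pairs, 78 passed (4.73%). Of the genes chosen by the naming rule 16 passed, as did PDIL1-5 (2.25), given above outside that rule. The 6 pairs per direction with the largest difference were named because they had passed, so their passing is no further evidence. The log2 difference, *B. depauperata* minus *A. thaliana*, was −3.76 for FKBP53, −3.72 for AT1G78070, −2.63 for AT3G03320, −2.53 for WNK8, −2.47 for FUS5 and −2.59 for IMS2. Among the genes that fell in *B. depauperata*, it was −2.19 for AT5G26680 and −1.61 for PHS2. It was positive for URE (3.26), AT1G34340 (2.85), AT3G57680 (2.79), AT1G11950 (2.75), AT2G46230 (2.62) and CBL1 (1.75). The *A. thaliana* reads of AT1G34340, AT3G57680 and AT1G11950 were few, as given above. CBL1 had an adjusted *P*-value of 0.0499, and its own log2 fold changes were 2.34 and 0.59. The fitted differences of AT3G27900 (5.73) and AT3G54270 (3.69) depend on the prior count, since *A. thaliana* held few reads of them. The identity of the AT3G27900 pair is uncertain, and that of the WNK8 pair could not be checked by neighbours. The cause of these differences was not tested.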

How the results depend on the processing

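No paired analysis was possible because the labels carry no replicate numbers that match libraries across conditions. The count of 620 DE genes was 250 under a test against a 2-fold change (glmTreat) and 1300 without the fold threshold. It ranged from 0 to 570 in edgeR when 1 library was left out. With the tested genes held fixed it was 6 and 356 without EW9 and EW10 and 0 and 556 without EW11 and EW12, and DESeq2 gave 359 to 707, both chosen after seeing the data. The other settings (DESeq2, RLE scaling, stricter or no count filter, 4 libraries only, thinning) gave between 414 and 852. The 78 species differences ranged from 10 to 43 with 1 library left out and from 94 to 105 otherwise. RCA, PSI-P and RIN2, which did not pass, changed sign between fits, from −0.27 to 0.26, −0.03 to 0.11 and −0.04 to 0.47 on the log2 scale when 1 library was left out, and PSI-P was −0.04 with at least 10 counts in every library. No named gene that passed changed sign under any of these settings. Depth limits low genes: 3 counts stood for up to 0.593 CPM.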

Other observations

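Beyond the lists, 24 named genes carry an RNA recognition motif or serine/arginine-rich annotation in their RefSeq product, a group formed after the values were seen and therefore not tested. Of these, 6 rose at least 4-fold, against 2.83% of all named and 2.27% of all tested genes, none fell, and the median log2 fold change was 0.33. They include SR45a and SR30, given above, and RRC1 (2.65), AT4G10110 (2.52), AT1G05970 (2.29) and AT5G06210 (2.04). Of 18 named genes annotated as glycosidases, also grouped afterwards, 3 fell at least 4-fold (E13L3, BGLU44 and BGAL4), against 0.491% of all named and 1.21% of all tested genes, 1 rose at least 4-fold (AT1G32860, 2.42), and the median was −0.02. Of the 1628 named genes, 1515 had a neighbour on the *B. stricta* scaffold whose partner lay within 1 Mb of their own partner in *A. thaliana*, 59 did not and 54 had no paired neighbour.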
